A study of Homo sapiens with 8 samples.

Results

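The genes examined here encode splicing factors and other RNA-binding proteins: the SR proteins (SRSF), the small nuclear ribonucleoprotein (snRNP) proteins (SNRP), the SF3A and SF3B subunits, the heterogeneous nuclear ribonucleoproteins (HNRNP), the pre-mRNA processing factors (PRPF), the Sm-like proteins (LSM), the U2AF subunits, the RNA-binding motif genes (RBM) and CELF. They were taken by gene symbol, and the symbols were chosen with earlier results of these data known. They numbered 105 of 9245 rows: 29 RBM, 18 HNRNP, 13 PRPF, 12 SNRP, 10 SRSF, 10 LSM, 9 SF3, 3 U2AF and 1 CELF. All 105 were matched to an annotated gene, and no filter on low values was added to whatever the authors applied, so each of them enters every count.

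Messenger RNA was sequenced from SK-BR-3 cells, a line from a human breast tumour that carries an ERBB2 amplification, to ask how mRNA levels change when mir-141, mir-200c or both are removed. Groups were the mir-141 knockout, the mir-200c knockout, the knockout of both microRNAs (double knockout) and wild-type cells, with 2 libraries in each, 1 per experimental set. Knockouts were made with TALENs, designed nuclease pairs, and each knockout library is a single clone: numbers 23, 11 and 55 for mir-141, mir-200c and double knockout in set 1, and 10, 29 and 61 in set 2. Within a group, clone and set cannot be told apart, and the wild type of a set is shared by all clones of that set. Values below are log2 ratios, each clone divided by the wild-type library sequenced in the same set, so that 0 means no difference. Where 3 values stand together they belong to the clones lacking mir-141, mir-200c and both, in that order. The ratios carry no expression level and no depth. Whether the cells kept the markers of the line could therefore be read only as ratios: 11 of 11 epithelial and ERBB2-amplicon markers were measured, and their medians lay between −0.03 and 0.10 in set 1.

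Splicing removes introns from pre-mRNA in the spliceosome, which is built from the U1, U2, U4, U5 and U6 snRNPs and many further proteins. Each of the snRNPs other than U6 carries a ring of Sm proteins, U6 carries a ring of LSm proteins, and SR and hnRNP proteins bind the transcript and steer which sites are used. In epithelial cells the mir-200 family keeps down transcription factors such as ZEB1 that drive a mesenchymal state, and epithelial and mesenchymal cells are known to splice many transcripts differently.

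The mature strands of the deleted microRNAs are shown because their seeds (bases 2 to 8, in capitals) set which 3' UTRs they can pair with. They lie on chromosome 12 at chr12:6964155-6964176 and chr12:6963742-6963764, plus strand, and the sequences are from RefSeq on GRCh38.p14.
miR-141-3p: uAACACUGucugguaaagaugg
miR-200c-3p: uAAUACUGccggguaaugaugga

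Of the splicing genes, 30 of 105 held at least 1 match of 7 or 8 bases to the miR-141-3p seed in their longest annotated 3' UTR (28.6%), as did 2392 of 9215 rows with a UTR, and 32 held a match to the miR-200c-3p seed (30.5%), as did 2224 of these rows. A match counted when it paired with bases 2 to 8, or with bases 2 to 7 followed by A. Full 8-base matches to miR-200c-3p were present in 5 of the genes and are shown as the longest pairing this microRNA can make by its seed, with the match in capitals and as DNA.
CELF1: gttcatttacctCAGTATTAccg
HNRNPH3: gacacaagaattCAGTATTAagt
PRPF38A: gaaagacttcagCAGTATTAaag
RBM25: aaggtgtctattCAGTATTAttt
SNRPB2: gttttcttcattCAGTATTAaat
These windows lie at chr11:47470940-47470962 (minus strand) in CELF1, chr10:68342806-68342828 in HNRNPH3, chr1:52418142-52418164 in PRPF38A, chr14:73122871-73122893 in RBM25 and chr20:16741541-16741563 in SNRPB2 (plus strand), on GRCh38. Full matches to miR-141-3p were present in 7 genes, and that of SF3B3 at chr16:70576131-70576153 (plus strand) is shown, since it had the highest ratio of them in the mir-141 knockout of set 1.
SF3B3: tgcttcacagtcCAGTGTTAtga

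The 2 sets did not resemble each other. Across the 105 genes the Pearson correlation between a clone of set 1 and a clone of set 2 lay between −0.191 and 0.127 over the 9 pairs, and across all 9245 rows between −0.00224 and 0.0105. These describe the libraries, share no library within a pair and have no test. Set 2 values may therefore stand beside the wrong gene names, which was not tested here. They are given as listed, after those of set 1, and a mean over both sets may join different genes.

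In set 1 the splicing genes stayed close to the wild type and lay slightly below it. Their medians were −0.03 in the mir-141 knockout, −0.12 in the mir-200c knockout, and −0.12 when both were lost, beside −0.01, −0.02 and −0.03 for all rows. Below 0 were 64 of 105 in the mir-141 knockout (51.9% of all rows), 63 in the mir-200c knockout (52.0% of all rows) and 81 in the double knockout (53.7% of all rows). All 3 clones of set 1 were below 0 for 39 genes (29.9% of all rows) and above 0 for 12 (24.9% of all rows). These clones share a wild type, so they do not count as separate observations. In set 2 as listed, medians were −0.04, −0.05 and −0.04, and 56, 63 and 61 genes were below 0 (54.2%, 52.1% and 54.1% of all rows).

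**Figure D1:**
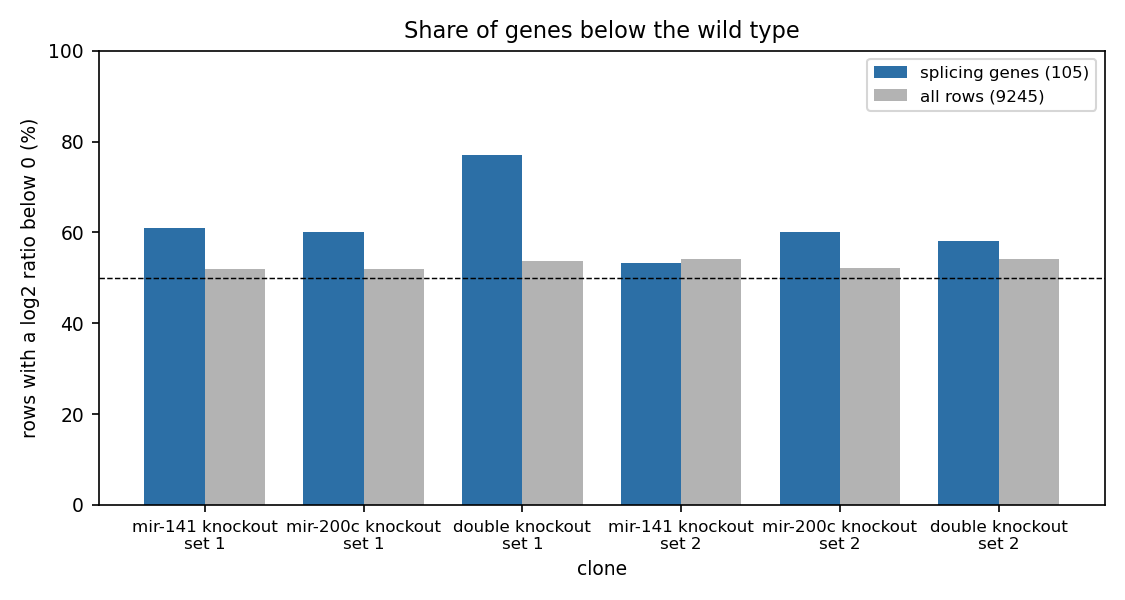
Share of rows with a log2 ratio below 0 (%, vertical axis) in each of the 6 clones, for the 105 splicing genes (blue) and all 9245 rows (grey); the dashed line marks 50%. The double knockout of set 1 has the tallest blue bar, 77.1% against 53.7% for all rows.

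Their spread was narrower than that of all rows. The interquartile range over the 105 genes was 0.170, 0.373 and 0.271 in the set 1 clones lacking mir-141, mir-200c and both, beside 0.265, 0.458 and 0.375 over all rows. The 5 lists of related genes described below were also narrower than all rows in set 1, except for snRNP assembly in the mir-141 knockout. The range was 0.242, 0.364 and 0.230 over 54 further spliceosome proteins, and 0.147, 0.345 and 0.201 over 37 other splicing regulators. Over 15 snRNP assembly genes it was 0.304, 0.394 and 0.242. Of the 105 genes, 0 lay beyond 0.5 in size in the mir-141 knockout of set 1 (3.55% of all rows were above 0.5 and 2.63% below −0.5). In the mir-200c knockout 1 gene was above 0.5 (9.05% of all rows) and 7 were below −0.5 (7.92%). In the double knockout 1 was above 0.5 (7.36%) and 5 were below −0.5 (5.06%), 3 of which (RBM48, SRSF4 and SNRPG) lay between −0.51 and −0.52. Beyond 1 in size lay RBM48 in the mir-200c knockout (1.06% of all rows were below −1 and 1.7% above 1) and SNRPN in the double knockout (0.746% below −1, 1.53% above 1), and none in the mir-141 knockout (0.562% below −1, 0.584% above 1). In set 2 as listed, 7 genes were above 0.5 and 3 below −0.5 in the mir-141 knockout (7.44% and 5.13% of all rows), 5 and 4 in the mir-200c knockout (5.88% and 4.5%), and 10 and 9 in the double knockout (8.89% and 7.67%). Above 1 in set 2 were 1, 1 and 2 of the genes (1.51%, 0.973% and 2.42% of all rows), and below −1 were 0, 1 and 1 (0.963%, 0.8% and 0.919%).

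**Figure D2:**
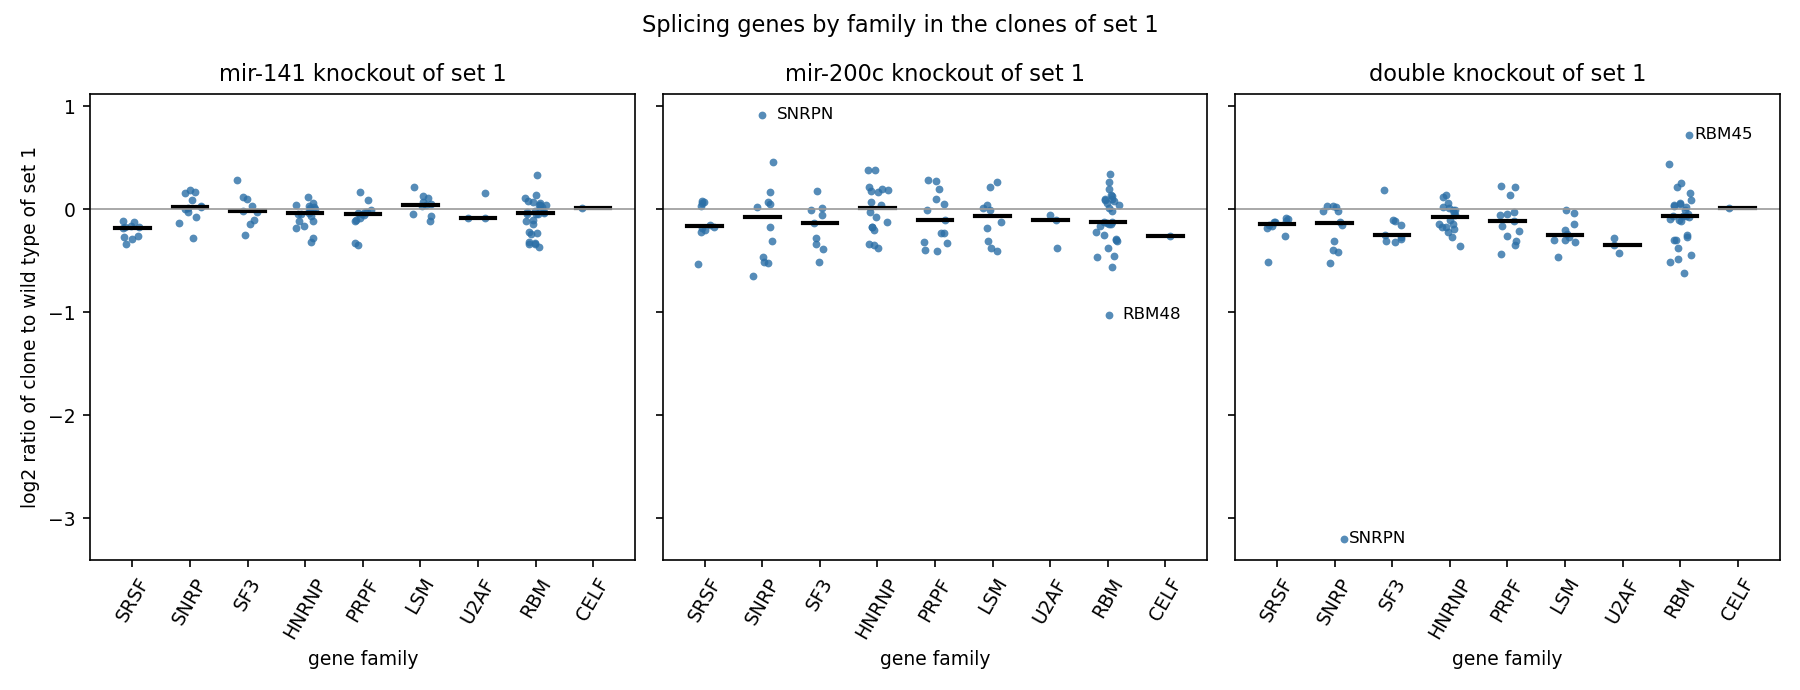
Log2 ratio of each splicing gene to the wild type of set 1 (vertical axis) by family (horizontal axis), with 1 panel per clone; points are genes and bars are family medians. SNRPN stands apart at 0.92 in the mir-200c knockout, and −3.20 when both were lost, and RBM48 at −1.02 in the mir-200c knockout.

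Sm proteins form the ring that is loaded on snRNAs during snRNP assembly, and all 8 genes listed for this ring were measured. SNRPN, which encodes SmN, a close relative of SmB that replaces it mainly in brain and is expressed from the paternal copy of an imprinted region, had 0.03 in the mir-141 knockout, 0.92 in the mir-200c knockout, and −3.20 when both were lost, all in set 1. In set 2 as listed it had −0.04, −0.12 and 0.80. Only the double knockout of set 1 was low, and both the mir-200c knockout of set 1 and the double knockout of set 2 were high. Its value in the double knockout of set 1 was the 6th lowest of 9245 rows, and that in the mir-200c knockout was the 199th highest. The double knockout of set 1 thus differed by −3.23 from the mir-141 knockout and by −4.12 from the mir-200c knockout of the same set on the log2 scale. Over both sets the fitted difference between double knockout and wild type was −1.20 ± 1.05 (SE of the pooled fit, limma adjusted p = 0.809), and the interaction of both losses had an adjusted p of 1.00 (limma), so the value rests on 1 library. SNRPN was named as strongly lower when these genes were chosen, and its ratios are a description.

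SNRPN (chr15:24823637-24978723, plus strand, GRCh38) had no match to either seed in its 3' UTR of 279 bases. Of 19 genes listed around it on chromosome 15, 6 were measured, and none of these was beyond 0.5 in size in set 1. UBE3A, the ubiquitin ligase gene next to it that is imprinted in the opposite sense in neurons, had 0.19, −0.07 and 0.01 in the set 1 clones lacking mir-141, mir-200c and both. TUBGCP5, the nearest measured gene on its other side, had −0.18, −0.28 and −0.03, and the median of its 13 measured neighbours was −0.07 without mir-200c and 0.01 without both microRNAs. SNURF, whose reading frame shares a transcript with SNRPN, was not among the 6 measured genes, and reads from SNURF and SNRPN cannot be told apart. The 8 measured imprinted genes from elsewhere had medians of 0.00, −0.11 and −0.29 in set 1. Of these 1, 1 and 1 were above 0.5 (3.55%, 9.05% and 7.36% of all rows), and 0, 0 and 1 below −0.5 (2.63%, 7.92% and 5.06%). Among them GRB10, a growth factor receptor adaptor, had 0.77, 1.14 and 1.19, and PEG10, derived from a retrotransposon, had −0.50, −0.21 and −0.74. In set 2 as listed the medians of the 8 were −0.02, 0.01 and −0.15.

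**Figure D3:**
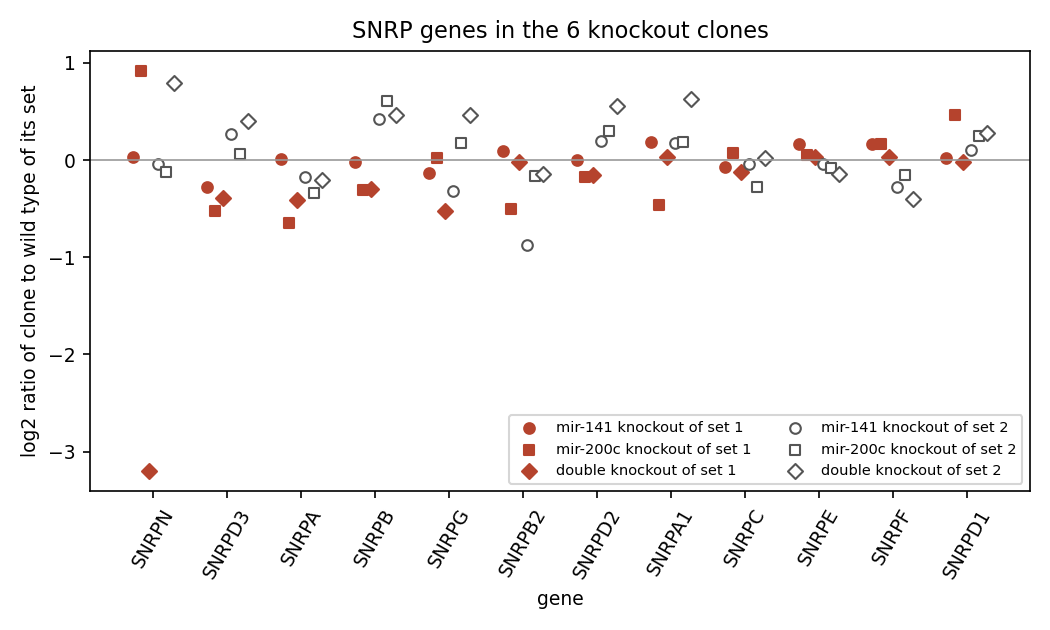
Log2 ratio of each clone to its own wild type (vertical axis) for the 12 SNRP genes, ordered by their mean over set 1; filled red symbols are the clones of set 1 and open symbols those of set 2. Apart from SNRPN in the double knockout of set 1, at −3.20, all points lie between −0.87 and 0.92.

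The other Sm genes moved by far less. SNRPB, which encodes SmB, had −0.02, −0.30 and −0.30 in the set 1 clones lacking mir-141, mir-200c and both, and was listed at 0.42, 0.61 and 0.47 in set 2. SNRPD3 had −0.28, −0.53 and −0.39 in set 1. It lies on chromosome 22, where the 20 measured neighbours around it had medians of −0.14, −0.31 and −0.32 and all 247 rows of the chromosome −0.10, −0.34 and −0.29. SNRPD1 had 0.02, 0.46 and −0.02, and SNRPG had −0.13, 0.02 and −0.52. SNRPE and SNRPF had ratios of 0.03 to 0.17 in every clone of set 1. SNRPE, SNRPG and several other short snRNP genes have processed pseudogenes, and their values are uncertain if reads were divided among copies.

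Proteins specific to U1 and U2 recognise the 5' splice site and the branch point. SNRPA, an RNA-binding protein of U1, had 0.01, −0.65 and −0.41 in the set 1 clones lacking mir-141, mir-200c and both and was listed at −0.17, −0.34 and −0.21 in set 2. SNRPC, which stabilises the pairing of U1 with the splice site, had −0.07, 0.08 and −0.12. SNRPC was listed at −0.04, −0.27 and 0.02 in set 2. Of these 2 genes SNRPA was the lower one in the set 1 clones that lack mir-200c.

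Among 11 genes of the U2 snRNP, 9 were below 0 without mir-200c (median −0.27), 9 without both (median −0.16) and 5 without mir-141 (median 0.04) in set 1. Of all rows 52.0%, 53.7% and 51.9% were below 0 in these clones, in the same order. SNRPA1 had 0.18, −0.47 and 0.04 in the clones lacking mir-141, mir-200c and both, and SNRPB2 had 0.09, −0.51 and −0.02. These 2 partners in the U2 particle were low without mir-200c and near 0 without both microRNAs. SNRPB2 holds 1 match to the miR-200c-3p seed, a full one, and 3 to the miR-141-3p seed. The part of these matches in its ratios was not tested. SF3B4, which contacts RNA near the branch point, had 0.04, −0.51 and −0.32. SF3B3 had 0.29, −0.01 and 0.19 and had the highest mean of the SF3 genes over set 1. SF3B1, the large subunit that holds the branch helix, had −0.14, −0.27 and −0.11. SF3A1 (−0.01, −0.34 and −0.30) lies on chromosome 22 among neighbours with medians of −0.18, −0.37 and −0.35.

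U2AF recognises the 3' splice site. U2AF2, the large subunit, had −0.08, −0.38 and −0.34 in set 1, while its 20 measured neighbours on chromosome 19 had medians of 0.13, 0.18 and 0.18. U2AF1, the small subunit, had −0.08, −0.10 and −0.42, and its relative U2AF1L4 had 0.16, −0.05 and −0.28. All 3 were below 0 in the double knockout of set 1 (53.7% of all rows). In set 2 as listed U2AF2 had 0.14, 0.26 and 0.30, U2AF1 had −0.14, −0.17 and −0.25, and U2AF1L4 had −0.50, −0.14 and −0.43.

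LSm proteins 2 to 8 bind the end of U6, and a ring with LSM1 acts in mRNA decay in the cytoplasm. Of 8 genes listed for these rings 7 were measured. In the set 1 clones lacking mir-141, mir-200c and both, 2, 4 and 7 of them were below 0 (51.9%, 52.0% and 53.7% of all rows). Their medians were 0.05, −0.01 and −0.30. LSM2 had 0.11, −0.41 and −0.47, LSM6 had 0.08, −0.31 and −0.30, and LSM4 had 0.05, −0.18 and −0.31. LSM3 (−0.05, 0.22 and −0.30) and LSM5 (0.13, 0.26 and −0.15) were above 0 in the mir-200c knockout and below 0 in the double knockout. LSM6 was listed at −0.21, −0.47 and −0.64 in set 2. LSM10, an Sm-like protein of the U7 snRNP that matures histone mRNA, had 0.04, −0.37 and −0.20 in set 1. LSM12 had 0.21, 0.04 and −0.01 in set 1, the highest mean of the measured LSM genes there.

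Genes of the U4/U6.U5 tri-snRNP and of the PRPF19 complex showed small shifts. PRPF3, a U4/U6 protein, had the lowest mean of the family over set 1, with −0.32, −0.33 and −0.44 in the set 1 clones lacking mir-141, mir-200c and both, and PRPF4, its partner, had −0.06, −0.41 and −0.34. PRPF39, related to a U1 factor of yeast, had −0.35, −0.39 and −0.26. PRPF8, which forms the core around the active site, had 0.09, −0.31 and −0.02, PRPF6 had −0.12, 0.27 and −0.12, and PRPF19 had −0.04, −0.23 and −0.21. PRPF18 had −0.09, 0.20 and 0.22. PRPF31 and PRPF38B were near 0 in set 1 (PRPF31 −0.03, 0.00 and −0.16; PRPF38B −0.01, 0.06 and 0.14). In set 2 PRPF31 was listed at 1.02, 0.51 and 1.23 and PRPF38B at 0.79, 0.62 and 1.16.

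SR proteins bind exonic enhancers and promote use of nearby splice sites. All 10 measured SRSF genes were below 0 in the mir-141 knockout (median −0.18) and in the double knockout (median −0.14) of set 1. In the mir-200c knockout of set 1, 6 were below 0 (median −0.16). Of all rows 51.9%, 52.0% and 53.7% were below 0 in the set 1 clones lacking mir-141, mir-200c and both. Of the 10, 6, 6 and 4 were listed below 0 in set 2 (54.2%, 52.1% and 54.1% of all rows). Their medians there were −0.12, −0.05 and 0.04, so the sets differed. SRSF10, which acts as a repressor when dephosphorylated, had −0.34, −0.53 and −0.26, which gave the lowest mean of the family over set 1. It was listed at −0.32, −0.38 and −0.62 in set 2, and is 1 of 14 splicing genes listed below 0 in all 6 clones (10.4% of all rows). SRSF4 had −0.17, −0.17 and −0.51, SRSF3 had −0.12, 0.08 and −0.15, and SRSF1 had −0.19, −0.20 and −0.19. SRSF11 had −0.17, −0.15 and −0.11. In set 1 the interquartile range of the 10 was 0.244 without mir-200c and 0.0618 without both microRNAs, where the lowest was −0.51 and the highest −0.08. In set 2 SRSF11, SRSF7 and SRSF4 were listed at 0.59, 0.57 and 0.48 in the mir-141 knockout.

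hnRNP proteins coat nascent transcripts and often oppose SR proteins. The 18 measured HNRNP genes had medians of −0.04, 0.01 and −0.08 in the set 1 clones lacking mir-141, mir-200c and both, and none passed 0.5 in size in these clones. HNRNPR was lowest, with −0.32, −0.38 and −0.35. HNRNPL, which binds CA-rich RNA, had 0.06, −0.34 and −0.17. HNRNPUL1 had 0.04, −0.33 and −0.18. HNRNPA1, a classic splicing repressor, had 0.04, 0.39 and 0.06, and HNRNPA3, its relative, had 0.12, 0.38 and 0.02. In set 1 both were above 0.3 in the mir-200c knockout alone. In set 2 as listed HNRNPA1 had −0.21, −0.38 and −0.27, and HNRNPA3 had 0.05, 0.10 and 0.01. In the mir-200c knockout of set 1 the 20 neighbours of HNRNPA1 had a median of 0.22, and those of HNRNPA3 −0.21. HNRNPA1 has many near-identical copies, including HNRNPA1L2 (0.00, −0.02 and −0.05 in set 1), and both are uncertain.

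RBM genes are grouped by an RNA-recognition motif and by name, and their roles differ. RBM48, a minor-spliceosome protein (chr7:92528773-92538005), had the lowest mean over set 1, with −0.32, −1.02 and −0.51 in the set 1 clones lacking mir-141, mir-200c and both, where its 20 neighbours had medians of −0.12, −0.24 and −0.09. RBM26, a partner of nuclear RNA surveillance (chr13:79311824-79406477), had −0.32, −0.56 and −0.62 beside neighbours at −0.02, 0.15 and −0.08. All 157 rows of chromosome 13 had medians of −0.13, −0.02 and −0.28 in these clones. RBM39, an SR-like splicing factor, had −0.36, −0.12 and −0.44, and RBM5, a regulator of apoptosis-related splicing, had −0.33, −0.14 and −0.30. RBM47, an epithelial RNA-binding protein, had −0.33, −0.46 and 0.04 and was listed at −0.53, −1.32 and −0.88 in set 2. RBM22, a factor of the catalytic spliceosome, had −0.03, −0.45 and −0.30. RBM45 had the highest mean over set 1, with 0.34, −0.14 and 0.73. RBM15 had −0.22, −0.29 and 0.22, and RBM8A, a core protein of the exon junction complex, had 0.07, 0.11 and 0.16. RBM25, which regulates alternative 5' splice sites and holds a full match to the miR-200c-3p seed, had 0.06, 0.27 and 0.05.

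RBM4 and RBM4B are near-identical copies that overlap on opposite strands of chromosome 11, and both are uncertain. RBM4 had 0.04, 0.34 and 0.44 in the set 1 clones lacking mir-141, mir-200c and both, and RBM4B had −0.05, −0.29 and −0.48. They moved apart in the same clones. RBM14, next to RBM4, had 0.08, 0.06 and 0.26. CELF1, which binds GU-rich RNA and was the single CELF gene measured, had 0.01, −0.26 and 0.01, and was listed at 0.10, −0.27 and −0.43 in set 2.

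**Figure D4:**
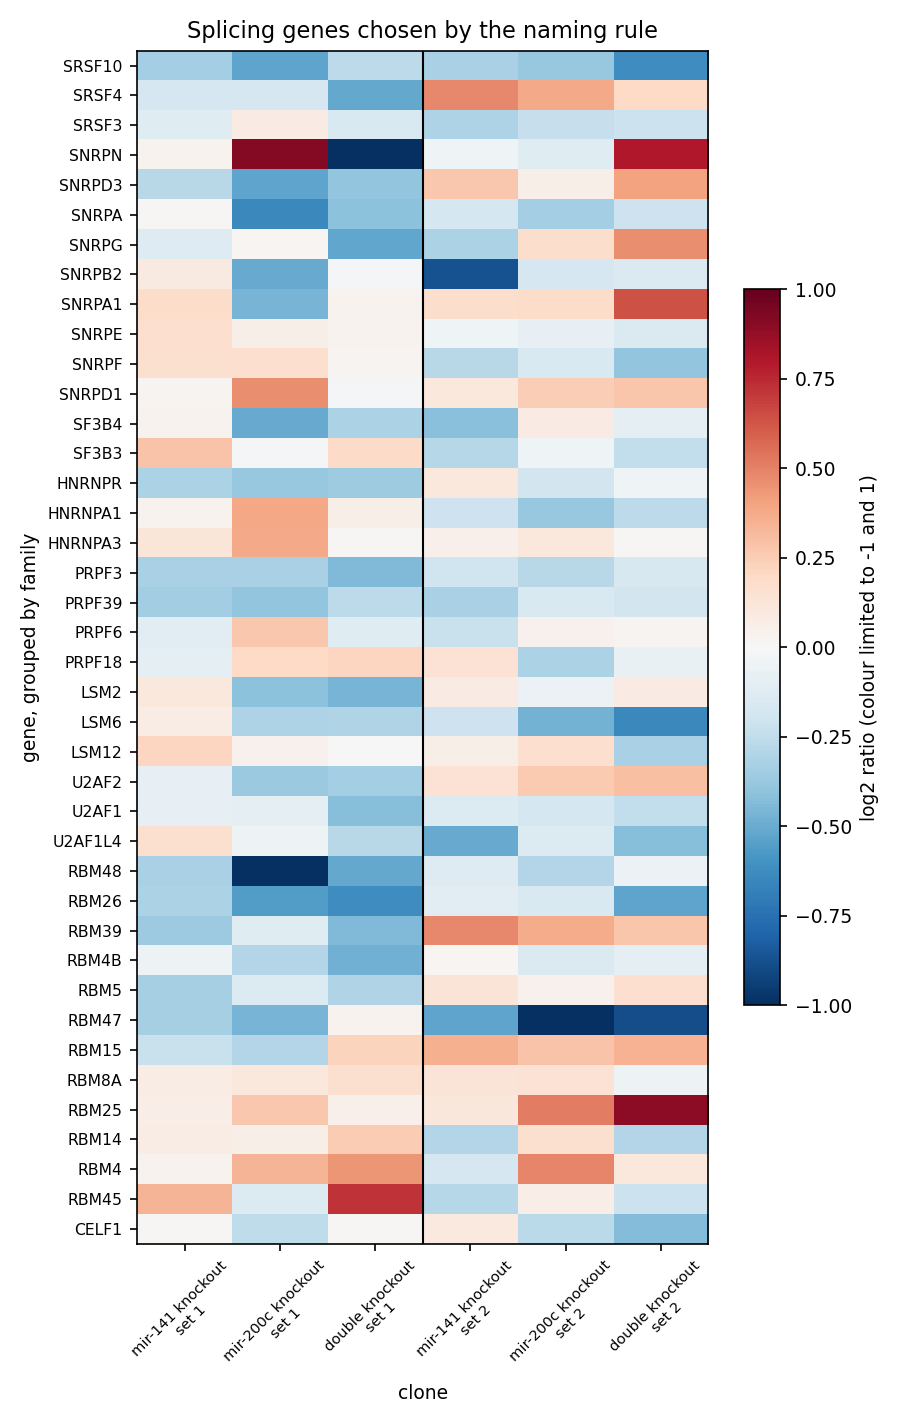
Log2 ratios (colour, limited to −1 and 1) of 40 splicing genes chosen by the naming rule in the 6 clones, with set 1 left of the vertical line and genes grouped by family. In set 1 the darkest blue cells are SNRPN in the double knockout (−3.20) and RBM48 in the mir-200c knockout (−1.02), and set 2 shows another pattern.

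Loss of mir-200c can be read in set 1 from 4 different libraries, as the mir-200c knockout minus the wild type and as the double knockout minus the mir-141 knockout. The genes had medians of −0.12 and −0.08 in these differences, beside −0.02 and −0.02 for all rows. Across the 105 genes Spearman's rho between them was 0.315 and Pearson's r was −0.152, or 0.315 without SNRPN, against 0.340 (Pearson) across all rows. Of the genes, 66 had the same sign in both (63.0% of all rows). Below −0.3 in both were 5 genes (3.96% of all rows): SNRPA with −0.65 and −0.42, LSM2 with −0.41 and −0.57, SF3B4 with −0.51 and −0.35, RBM26 with −0.56 and −0.30, and LSM6 with −0.31 and −0.38. RBM4 was the only gene above 0.3 in both, with 0.34 and 0.40 (4.95% of all rows). SNRPN had 0.92 and −3.23.

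**Figure D5:**
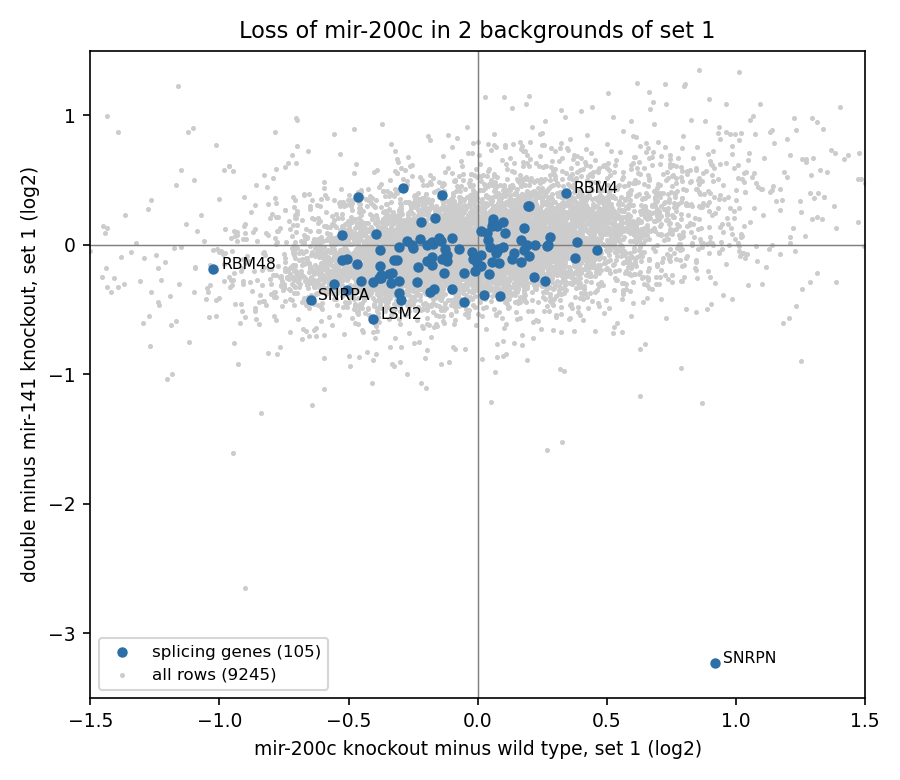
Loss of mir-200c in set 1 as the mir-200c knockout minus the wild type (horizontal axis, log2) and as the double minus the mir-141 knockout (vertical axis, log2), for 105 splicing genes (blue) and all 9245 rows (grey, 82 of them outside the window). SNRPN lies at the lower right, with 0.92 and −3.23, and SNRPA and LSM2 are low on both axes.

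In set 2 as listed, LSM6 also met that threshold, with −0.47 and −0.44, as did HNRNPA2B1, HNRNPUL2, LSM5, RBM19 and RBM47 (4.34% of all rows), while PRPF38B, RBM23 and RBM25 were above 0.3 in both (4.63%). Past 0.5 in both backgrounds for loss of mir-200c lay 0 genes above in set 1 (1.89% of all rows) and RBM25 above in set 2 (1.74%). LSM6 was thus below −0.3 in all 4 differences as listed, but those of set 2 may belong to another gene. How many of all rows do the same was not counted. RBM26 had −0.15 and −0.41 in set 2. Loss of mir-141 left fewer genes past 0.3 in both backgrounds of set 1: RBM45 was above it, with 0.34 and 0.86 (2.56% of all rows), and RBM39 below −0.3, with −0.36 and −0.32 (2.25% of all rows). The same sign was seen for 53 of 105 genes (51.8% of all rows). For set 2 the table lists 5 genes above 0.3 in both backgrounds for loss of mir-141 (3.88% of all rows), namely HNRNPA2B1, PRPF31, PRPF38B, RBM22 and RBM33, and 1 below −0.3 (2.95%). PRPF31 and PRPF38B were also above 0.5 there (1.36%), and 63 genes had the same sign (59.7%).

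Over both sets limma called 0 of the 105 genes in every comparison at an adjusted p under 0.05, as it called 0.0% of all rows. At an unadjusted p under 0.05 there were 0 in the mir-141 knockout (2.68% of all rows), 7 in the mir-200c knockout (5.4%), 5 in the double knockout (6.28%), 1 for loss of mir-141 (5.15%) and 9 for loss of mir-200c (8.88%) when each loss was fitted over both backgrounds, and 2 for their interaction (1.7%). LSM6 had the smallest p, for loss of mir-200c (−0.40 ± 0.10, fitted log2 difference ± SE, limma adjusted p = 0.541). RBM26 had −0.36 ± 0.10 there (limma adjusted p = 0.541) and −0.57 ± 0.16 in the double knockout (limma adjusted p = 0.740), and RBM4 had 0.38 ± 0.11 for loss of mir-200c (limma adjusted p = 0.541). These differences did not pass the correction. In the comparisons of a group with the wild type, the p-values measure how far the 2 sets differ within groups. Each group has a different clone in each set. For the losses fitted over both backgrounds, the spread also takes in how far the effects of both losses depart from adding up.

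Genes with and without seed matches were set side by side. In the double knockout of set 1 the 58 splicing genes with neither match had a median of −0.19, and 6 of them were above 0. Those with a miR-141-3p match only (15) had a median of 0.02, with a miR-200c-3p match only (17) −0.10, and with both (15) −0.07. Over all rows the 4 classes had medians of −0.05 (neither), 0.00, 0.00 and 0.04 in the same order. The genes with neither match had a median 3' UTR of 455 bases, against 2409, 2046 and 4149 in the other classes, and the part of UTR length in these medians was not tested. In the mir-200c knockout of set 1 the 15 genes with both matches had a median of −0.22, the 17 with a miR-200c-3p match only 0.06 and the 15 with a miR-141-3p match only 0.04, against −0.16 for the 58 with neither. Over all rows these classes had medians of 0.019, −0.001, −0.007 and −0.026 in the same order. In the mir-141 knockout of set 1 the medians were 0.00 with both, −0.01 with a miR-200c-3p match only and −0.05 with a miR-141-3p match only, against −0.04 with neither. Over all rows they were 0.001, −0.016, 0.005 and −0.011 in the same order. Of the 5 genes with a full miR-200c-3p match, HNRNPH3 (0.22), RBM25 (0.27) and PRPF38A (0.10) were above 0 in the mir-200c knockout of set 1. CELF1 (−0.26) and SNRPB2 (−0.51) were below 0 there. Among those with a full miR-141-3p match, SF3B3 had 0.29 in the mir-141 knockout of set 1, RBM4 0.04, SNRPD1 0.02, RBM7 0.02, RBM33 0.00 and RBM12 −0.11.

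Other genes of the pathway were read from lists that exclude the genes above. Of 54 measured further spliceosome proteins, 37 were below 0 in the double knockout (53.7% of all rows) and 31 in the mir-200c knockout (52.0%) of set 1. Their medians were −0.09 and −0.03. In the mir-141 knockout of set 1, 28 were below 0 (51.9% of all rows), and 30, 27 and 31 were listed below 0 in set 2. CWC27, a prolyl isomerase of the spliceosome, had 0.71, 0.74 and 0.58 in the clones lacking mir-141, mir-200c and both, and SNRNP70, the U1-70K protein, had −0.15, −0.25 and −0.30. PHF5A, an SF3B partner (−0.28, −0.49 and −0.65), and NHP2L1, a U4 binding protein (−0.16, −0.58 and −0.40), lie on chromosome 22, whose medians are given above. TXNL4A, a U5 protein on chromosome 18, had 0.66, −0.12 and 0.72, and its 20 neighbours had medians of 0.51, −0.04 and 0.92.

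Among 37 measured splicing regulators of other names, 29, 27 and 31 were below 0 in the set 1 clones lacking mir-141, mir-200c and both. Of all rows 51.9%, 52.0% and 53.7% were. In set 2 as listed 19, 17 and 21 of the 37 were below 0 (54.2%, 52.1% and 54.1% of all rows), so the sets differed. QKI, an RNA-binding regulator with 4 matches to each seed, went the other way in the clones without mir-200c, with −0.19 in the mir-141 knockout, 0.93 in the mir-200c knockout, and 0.67 when both were lost, and it was listed at 0.14, 0.00 and 0.10 in set 2. The epithelial splicing regulators ESRP1 (−0.07, −0.18 and −0.31) and ESRP2 (−0.17, −0.34 and −0.23) were slightly below 0. PTBP1, the polypyrimidine tract binding protein, had 0.07, −0.43 and −0.06, TRA2B had −0.11, −0.55 and −0.40, MBNL1 had 0.07, −0.12 and −0.13, and RBFOX2 had −0.11, −0.18 and −0.17. EWSR1 (−0.32, −0.68 and −0.52) lies on chromosome 22.

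Kinases and carriers of SR proteins were measured for 11 of 11 genes. Below 0 in set 1 were 7, 10 and 7 of them (51.9%, 52.0% and 53.7% of all rows), and 5, 8 and 5 were listed below 0 in set 2. CLK1 had −0.52, −0.55 and −0.28 in set 1 and CLK4 had −0.44, −0.31 and −0.24. The same shares of all rows apply to the set 1 counts of the next 2 lists. For the exon junction complex and nonsense-mediated decay (14 genes), 6, 4 and 9 were below 0, with medians of 0.02, 0.03 and −0.08, and SMG1, a kinase of the decay pathway, had −0.30, −0.41 and −0.29. For snRNP assembly (15 genes), 8, 7 and 6 were below 0, and PHAX, which exports snRNAs, had 0.19, 0.31 and 0.49. Limma called 0 genes of these 5 lists in any comparison over both sets (0.0% of all rows). At an unadjusted p under 0.05 there were 0 to 3 per list and comparison, and the lists differ in size. For loss of mir-200c (8.88% of all rows) these were 2 of 54 spliceosome proteins and 3 of 37 regulators. They were also 3 of 11 kinases and carriers, 3 of 14 exon junction and decay genes and 0 of 15 assembly genes. The other comparisons had 1.7% to 6.28% of all rows. Of 13 mesenchymal or fibroblast genes 7 were measured. Above 0.5 in set 1 were 2, 6 and 4 of these (3.55%, 9.05% and 7.36% of all rows), and the medians of the 7 were 0.25, 1.23 and 0.95. Whether their transcripts came from other cells in the culture or from the SK-BR-3 cells themselves was not tested. FN1 had 1.17, 1.23 and 1.12, TAGLN had −0.22, 2.08 and −0.41, COL5A1 had −0.29, 1.29 and −0.09, and COL1A1 had −0.11, −0.41 and −0.15. Medians listed in set 2 were −0.01, −0.10 and −0.17, and FN1 had −0.29, −0.80 and −0.84. Of 7 blood cell genes 3 were measured, with LCP1 at −0.13, 1.05 and −0.44, CD68 at 0.52, −0.48 and 0.40, and CORO1A at −0.01, −0.54 and −0.48. Their part in the ratios of the splicing genes was not tested.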

How the data were processed

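Log2 ratios were deposited by the authors for 6 knockout clones, each relative to the wild type of its set, and no expression levels were used. Per the submitters' processing notes, TopHat2 and GRCh37.p10 were used. Counting, scaling, filters and tool versions: not given in the sources used here. Library depth is unknown, so neither counting intervals nor detection floors are reported, and columns of samples outside the series numbered 0. Per the labels' protocols, oligo(dT)-selected mRNA was fragmented, ligated to adaptors and read on a HiSeq.

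Each wild type was set to 0 and limma 3.58.1 (R 4.3.3) was fitted to all 9245 rows of the 8 libraries, with the experimental set as a block, and tested on simulated data. Calls needed a Benjamini-Hochberg adjusted p under 0.05. The set named in the labels pairs the libraries. The gene symbols and lists were chosen with earlier results of these data known. Named genes were SNRPN, the 8 highest and 8 lowest per clone of set 1, the members with the highest and lowest set 1 mean per family, genes past 0.3 in both backgrounds, those with an unadjusted p under 0.01, up to 4 per other list and some listed by name; genes with a full seed match or a partner in the same particle, and values of set 2 that stand out, were added after their values were seen. Annotation and 3' UTRs came from GENCODE 29 (GRCh38), which matched 9234 rows. Neighbours were the 10 nearest measured genes on each side. The values of 1 gene are not reported here.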

Additional observations from a re-analysis of the deposited data

How the results depend on the processing

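The 11 alternatives to each fit called 0 of the 105 splicing genes, the replicate block included: without it, taking the 6 ratios as independent, the counts of genes called stayed at 0. Over the alternatives the smallest adjusted p of a splicing gene (limma) ranged from 0.385 to 0.829 in the double knockout and from 0.519 to 0.769 for loss of mir-200c. Over all rows, leaving out 1 library gave 0 to 1 calls in the mir-141 knockout, 0 to 1 in the mir-200c knockout and 0 to 2 in the double knockout, where a group left with 1 library is assumed to vary like the others. Calls of 1, 1 and 2 came without the wild type of set 2, and the mir-200c knockout had 1 without either of its own clones. Centring each column on its median gave medians for the splicing genes of −0.026, −0.10 and −0.097 in the set 1 clones lacking mir-141, mir-200c and both, and of −0.013, −0.036 and −0.010 in set 2. It left 2 genes below −0.5 in the double knockout of set 1 and 3 below −0.3 in both backgrounds for loss of mir-200c. The genes that no longer passed were RBM48, SNRPG and SRSF4 (−0.51, −0.52 and −0.51 before centring) in the double knockout, and RBM26 and LSM6 for loss of mir-200c. In set 1 with a threshold of 1, 0 genes were above and 1 below in the mir-200c knockout, and 0 above and 1 below in the double knockout; with 0.5 in both backgrounds of set 1, 0 genes remained for either loss in either direction. With no counts, depth limits cannot be given.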
